A study of Macaca mulatta with 16 samples.

Results

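Transcription factors that specify and pattern the lung epithelium were examined in the lungs of 16 rhesus macaque fetuses. The genes, and the gene lists given beside them, were chosen by name with earlier results of these data known. Of the 10 symbols NKX2-1, FOXA1, FOXA2, GATA6, CEBPA, SOX9, SOX2, ETV4, ETV5 and ID2, 8 matched a row of the count table by their rhesus Ensembl identifier, and all 8 passed the filter on low counts. SOX2 and CEBPA matched no row and were not analysed here. The table holds 22515 genes, of which 19199 were tested. The identifiers are ENSMMUG00000009641 for NKX2-1, ENSMMUG00000056013 for FOXA1, ENSMMUG00000010410 for FOXA2, ENSMMUG00000010944 for GATA6, ENSMMUG00000063817 for SOX9, ENSMMUG00000014633 for ETV4, ENSMMUG00000013610 for ETV5 and ENSMMUG00000003237 for ID2.

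The animals fell into 5 groups by the labels, with 1 library of poly(A)-selected lung RNA per animal. Preterm controls (n = 4) had no intervention and were delivered at 131 to 135 days of gestation, and term controls (n = 2), also without intervention, were delivered at 156 and 157 days. Animals of the group LPS 16h (n = 4) received 1 mg of bacterial lipopolysaccharide (LPS, a cell wall component that triggers inflammation) into the amniotic fluid and were delivered 16 hours later, at 130 or 131 days. Animals of the group LPS 5d (n = 3) received the same dose and were delivered 5 days later, at 131 to 134 days. In the group LPS + Beta-Ac 5d (n = 3) the dam also received 0.125 mg/kg of betamethasone-acetate (Beta-Ac, a corticosteroid given to mature the fetal lung) by intramuscular injection, and delivery followed at 5 days, at 131 or 132 days. Treatment was given at 129 or 130 days in LPS 16h and at 126 to 129 days in LPS 5d. In LPS + Beta-Ac 5d it was given at 126 or 127 days. No group given Beta-Ac alone was analysed here. Controls had no sham injection by the labels, so injection itself cannot be told apart from LPS, and the labels of the single animals hold neither sex nor batch. The comparisons asked how prenatal inflammation, inflammation with a corticosteroid, and advancing gestation changed the fetal lung.

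NKX2-1 is the homeodomain factor that marks the lung lineage from its start and drives surfactant protein genes in alveolar type 2 cells, the cells that make surfactant. FOXA1 and FOXA2 are forkhead factors that open chromatin in endoderm and act with NKX2-1, and GATA6 is a zinc finger factor of the distal epithelium that mesenchyme and vessels also use. SOX9 marks the growing tips of the airway tree and is also a master factor of cartilage. ETV4 and ETV5 are ETS factors that are switched on when fibroblast growth factor (FGF) receptors signal through ERK at the tips, and ID2, another tip gene, encodes a helix-loop-helix protein that keeps other factors from binding DNA. As the fetal lung enters the saccular stage, tip genes are known to give way to genes of alveolar type 1 and type 2 cells.

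Library totals ran from 30.6 M to 48.1 M counts (M for mega) in LPS 16h and from 20.2 M to 28.3 M in the other 12 animals, so the depth differed with that group. TMM (trimmed mean of M values) scaling factors ran from 0.857 to 0.920 in LPS 16h and were at least 0.995 in the other animals. Levels are given as TMM-scaled CPM (counts scaled to 1 M per library), per animal and as mean ± SD, and are not adjusted for gene length, so levels of different genes are not compared. Differences are log2 fold changes from limma on log2 CPM, with 1 mean per group and the spread shared by all 16 animals. A gene "passed" when its Benjamini-Hochberg adjusted p, over all genes tested, was below 0.05, and it was "called" when it also differed by at least 2-fold. The preterm controls stand in every comparison with them and the LPS 5d animals in several, so the comparisons are not independent of each other. In whole lung, fewer cells of a type and less RNA per cell cannot be told apart. Preterm control 209 and term control 200 had the highest FOXA1 and SOX9 of their groups, and values without them are given where they matter.

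The 16 genes tested of a list of pan-epithelial genes such as EPCAM and CDH1 summed to 776 to 983 CPM in the preterm controls, 792 and 1056 CPM in the term controls, 1031 to 1310 CPM in LPS 16h, 1046 to 1182 CPM in LPS 5d and 1065 to 1143 CPM in LPS + Beta-Ac 5d. Against preterm controls the median of their log2 fold changes was 0.47 in LPS 16h, 0.54 in LPS 5d and 0.47 in LPS + Beta-Ac 5d, beside medians over all genes tested of -0.09, -0.0017 and -0.01. At an adjusted p below 0.05, 8 of the 16 were higher and 1 was lower in LPS 16h, and 5 were higher and none lower in each of the 5-day groups. The median of this list was above that of all genes after LPS, although 6 of its 16 genes read lower at 16 hours, and the transcription factors are also given relative to its mean log2 CPM. On that scale the median over all genes tested was -0.38 in LPS 16h, -0.45 in LPS 5d and -0.43 in LPS + Beta-Ac 5d, and values relative to the list are to be read against these.

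**Figure D1:**
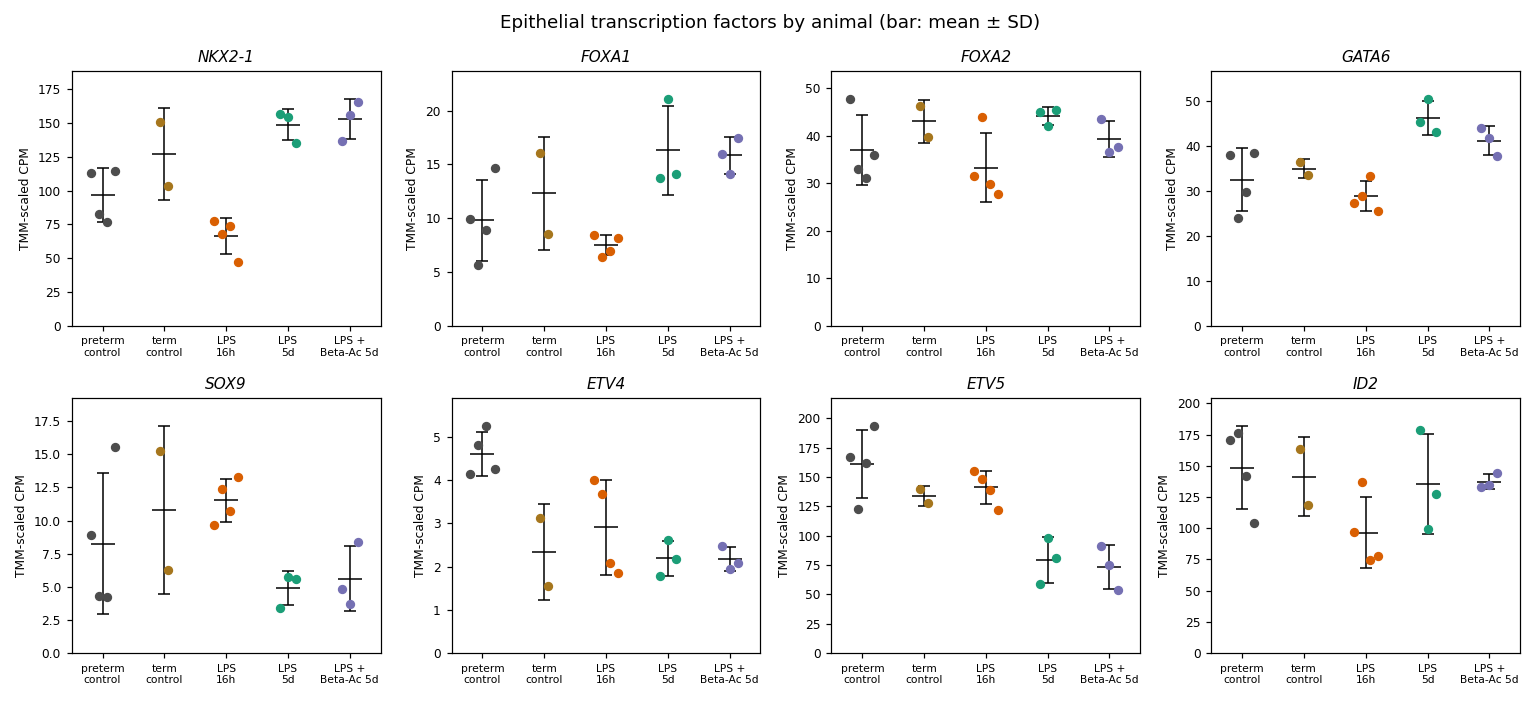
TMM-scaled CPM (y axis, linear and starting at 0) of the 8 transcription factor genes in each animal, by group on the x axis, with a bar for the mean and whiskers for ± SD. ETV5 in the 6 animals delivered 5 days after LPS sits between 53.4 and 98.0 CPM, below all other animals, and NKX2-1 in the LPS 16h animals sits between 47.2 and 77.6 CPM, below every animal of the 5-day groups.

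At 5 days after LPS the ETS factors were lower and the lineage factor NKX2-1 was higher than in preterm controls, with or without Beta-Ac. Of the 8 genes, ETV5 and ETV4 were called lower in LPS 5d and in LPS + Beta-Ac 5d, where 2.23% and 2.44% of all genes tested were called lower. No member was called higher, where 2.6% and 4.05% of all genes were. Without the fold limit, 4 of 8 passed in LPS 5d, beside 14.7% of all genes, and 3 of 8 passed in LPS + Beta-Ac 5d, beside 17.3%. The count of 2 called stood at 0 to 2 when 1 animal at a time was left out, because ETV5 lies close to the 2-fold limit and ETV4 close to the limit on p.

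ETV5 measured 167, 123, 162 and 193 CPM in preterm controls 092, 101, 113 and 209. It measured 58.7, 98.0 and 80.7 CPM in LPS 5d animals 239, 240 and 242, and 91.1, 74.9 and 53.4 CPM in LPS + Beta-Ac 5d animals 248, 249 and 255. Every animal of both 5-day groups was below every control, term controls included. The group means were 161 ± 29.0 CPM (SD, n = 4) in preterm controls, 79.1 ± 19.7 CPM (n = 3) in LPS 5d and 73.1 ± 18.9 CPM (n = 3) in LPS + Beta-Ac 5d. The log2 fold change was -1.04 (SE 0.20, limma adjusted p = 0.00293) in LPS 5d and -1.15 (SE 0.20, adjusted p = 0.00105) in LPS + Beta-Ac 5d. ETV5 passed under all alternatives tried, with adjusted p up to 0.0217 and 0.0157, but the change in LPS 5d fell under 2-fold without preterm control 209 (-0.94), without LPS 5d 239 (-0.84) and with gestational age as a covariate (-0.997), and the change in LPS + Beta-Ac 5d did so without animal 255 (-0.94). The differences relative to the epithelial list were -1.49 and -1.58.

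ETV4 was measured at low counts, from 46 to 148 per library, and moved in the same direction. It read 4.14, 4.81, 5.25 and 4.26 CPM in the preterm controls, 1.78, 2.61 and 2.18 CPM in LPS 5d, and 2.48, 1.95 and 2.08 CPM in LPS + Beta-Ac 5d. No animal of the 5-day groups reached the lowest preterm control. The log2 fold change was -1.06 (SE 0.29) in both groups, with limma adjusted p of 0.0224 and 0.0192. This call depended on single animals: adjusted p rose to 0.100 without LPS 5d 239, 0.0591 without LPS 5d 242, 0.0502 without preterm control 101 and 0.0618 without preterm control 113, and in LPS + Beta-Ac 5d to 0.0839 without animal 249, 0.0567 without animal 255 and 0.0531 without preterm control 113.

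FGF ligands bind receptors on the tips, and ERK signaling from the receptors induces ETV4, ETV5 and ETV1 as well as feedback inhibitors of the Sprouty (SPRY), SPRED and DUSP families. Of a list of 18 ligands, receptors, inhibitors and targets, which does not hold ETV4 or ETV5, 16 were tested. In LPS 5d 4 were called lower and 1 higher, with a median log2 fold change of -0.69 beside -0.0017 over all genes. In LPS + Beta-Ac 5d 4 were again called lower and 1 higher, with a median of -0.65 beside -0.01. Called or not, 13 read lower and 3 higher in LPS 5d, and 14 read lower and 2 higher in LPS + Beta-Ac 5d.

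The feedback inhibitor SPRY4 fell with LPS by 1.25 on the log2 scale (SE 0.22, limma adjusted p = 0.00206), from 69.0 ± 17.5 CPM (n = 4) to 28.7 ± 5.87 CPM (n = 3). All 3 LPS 5d animals, between 24.5 and 35.4 CPM, were below the preterm controls, between 51.3 and 90.6 CPM. With LPS + Beta-Ac it fell by 1.03 (adjusted p = 0.00516). SPRED1, which blocks the pathway at RAF, fell by 1.17 (adjusted p = 0.00380) and by 1.03 (adjusted p = 0.00627). ETV1, the third ETS factor of this subfamily, fell by 1.08 (adjusted p = 0.00312) and by 1.16 (adjusted p = 0.00145), and its 6 values after LPS, from 14.4 to 22.2 CPM, lay below the 4 preterm values, from 33.8 to 41.1 CPM. DUSP6, a phosphatase that switches off ERK, fell by 1.20 with LPS (adjusted p = 0.0279) and was at -1.03 with LPS + Beta-Ac (adjusted p = 0.0504). The inhibitor SPRY2 changed little, at 51.2 ± 7.57 CPM in LPS 5d and 43.6 ± 1.95 CPM in LPS + Beta-Ac 5d, against 50.0 ± 3.90 CPM in preterm controls.

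The ligand FGF10, made by distal mesenchyme, fell with LPS + Beta-Ac by 1.10 on the log2 scale (SE 0.24, limma adjusted p = 0.00497) and was at -0.69 with LPS (adjusted p = 0.0631). FGF7, another mesenchymal ligand of the same receptor, fell by 0.80 (adjusted p = 0.0308) and 0.74 (adjusted p = 0.0384). FGFR2, the epithelial receptor of both ligands, moved the other way. It rose from 205 ± 36.0 CPM in preterm controls to 416 ± 98.4 CPM with LPS and 454 ± 31.0 CPM with LPS + Beta-Ac, which are log2 fold changes of 1.01 (SE 0.17, adjusted p = 0.00126) and 1.17 (SE 0.17, adjusted p = 3.05e-04). The receptor gene FGFR3 also read higher but did not pass, at 314 ± 40.8 and 326 ± 59.5 CPM against 224 ± 31.9 CPM. The mesenchymal and smooth muscle list, which includes cells that make FGF10, summed to 15019 to 23080 CPM in preterm controls, 9468 to 15581 CPM in LPS 5d and 9082 to 12456 CPM in LPS + Beta-Ac 5d, and its part in these differences was not tested.

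**Figure D2:**
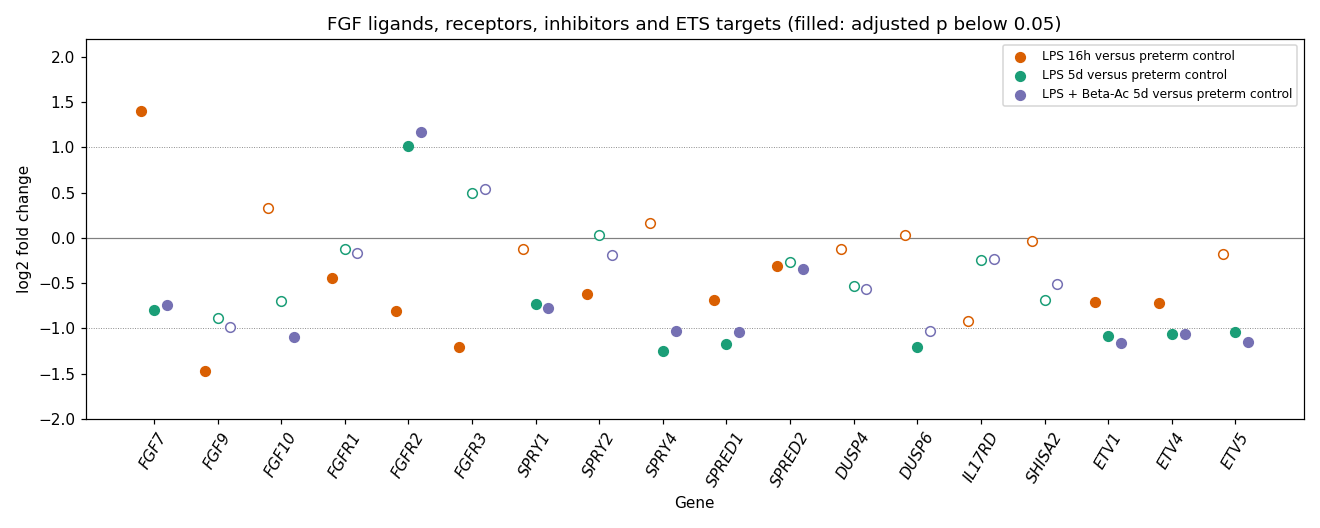
Log2 fold change against preterm controls (y axis) of 16 tested FGF pathway genes and of ETV4 and ETV5 (x axis), for LPS 16h, LPS 5d and LPS + Beta-Ac 5d. Filled points passed an adjusted p of 0.05, and dotted lines mark 2-fold. At 5 days ETV1, ETV4, ETV5, SPRY4 and SPRED1 sit at or below -1.03, FGFR2 sits above 1, and at 16 hours FGF7 is at 1.41 while FGFR2 and FGFR3 are at -0.81 and -1.20.

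NKX2-1 was higher 5 days after LPS. It measured 113, 82.5, 76.6 and 114 CPM in the preterm controls, 156, 154 and 136 CPM in LPS 5d, and 137, 156 and 166 CPM in LPS + Beta-Ac 5d. None of the 6 treated animals overlapped with the preterm controls. The log2 fold changes were 0.64 (SE 0.19, 95% interval 0.24 to 1.05, limma adjusted p = 0.0331) and 0.68 (SE 0.19, 0.28 to 1.09, adjusted p = 0.0216), below the 2-fold limit. Adjusted p in LPS 5d rose to between 0.0532 and 0.111 without animal 239, 240 or 242 or without preterm control 101 or 113, and in LPS + Beta-Ac 5d to between 0.0622 and 0.0787 without animal 249 or 255 or the same controls. Relative to the epithelial list the difference was 0.19 (adjusted p = 0.367) and 0.26 (adjusted p = 0.222), so NKX2-1 did not pass relative to the 16 genes of that list.

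GATA6 rose with LPS by 0.53 on the log2 scale (SE 0.15, limma adjusted p = 0.0303). It read 37.9, 24.1, 29.7 and 38.4 CPM in the preterm controls, 45.4, 50.4 and 43.0 CPM in LPS 5d, and 44.0, 41.7 and 37.7 CPM in LPS + Beta-Ac 5d, where the groups overlapped and the log2 fold change was 0.36 (SE 0.15, adjusted p = 0.126). In LPS 5d the adjusted p rose to between 0.0507 and 0.129 without any of animals 239, 240 and 242 or without preterm control 101 or 113, and was 0.0520 with only these groups in the fit. GATA6 relative to the epithelial list was at 0.08 (adjusted p = 0.665) and -0.06 (adjusted p = 0.741).

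FOXA1 was at 0.78 in LPS 5d (SE 0.28, limma adjusted p = 0.0750) and at 0.76 in LPS + Beta-Ac 5d (SE 0.28, adjusted p = 0.0746) and did not pass. Its preterm values were 9.93, 5.68, 8.87 and 14.7 CPM, the highest in animal 209, and the 6 treated animals ranged from 13.7 to 21.1 CPM. Without preterm control 209 both differences passed, at 1.00 (adjusted p = 0.0180) and 0.98 (adjusted p = 0.0172). With gestational age as a covariate they also passed, at 0.92 (adjusted p = 0.0198) and 1.12 (adjusted p = 0.0176), the latter called. FOXA2, its close relative, was at 0.27 and 0.10 with intervals of -0.08 to 0.63 and -0.25 to 0.46, and turned to -0.18 and -0.32 relative to the epithelial list, with adjusted p of 0.384 and 0.120.

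SOX9 and ID2 did not pass in either 5-day group. SOX9 read 8.89, 4.30, 4.26 and 15.6 CPM in the preterm controls, 3.41, 5.72 and 5.60 CPM in LPS 5d, and 4.82, 3.69 and 8.36 CPM in LPS + Beta-Ac 5d. The log2 fold changes of -0.56 (SE 0.43) and -0.42 (SE 0.43) came with intervals of -1.49 to 0.36 and -1.34 to 0.51, with controls that spread more than 3-fold. SOX9 was called lower in LPS 5d relative to the epithelial list, at -1.02 (limma adjusted p = 0.0423), and was at -0.84 (adjusted p = 0.0859) in LPS + Beta-Ac 5d on that scale. In LPS 5d that scale moved the median of all genes to -0.45 and the calls over all genes from 928 to 2216. There 36.0% of all genes passed, so SOX9 moved with the table. ID2 differed by -0.14 (SE 0.24) and -0.09 (SE 0.24), with intervals of -0.65 to 0.36 and -0.59 to 0.42.

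At 16 hours after LPS, NKX2-1, ID2 and ETV4 were lower than in preterm controls by less than 2-fold, and no member was called. Under the same limma fit 8.3% of all genes were called higher and 6.07% lower at this time. Among the 8 genes 3 passed, all lower, and 3 had unadjusted p-values below 0.05. With 38.3% of all genes passing, 3 of 8 (37.5%) is the share of the whole table and does not single these genes out. The alternative with voom weights also called none and passed 3.

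NKX2-1 measured 77.6, 67.6, 73.6 and 47.2 CPM in LPS 16h animals 026, 029, 035 and 038, against 96.6 ± 19.9 CPM in preterm controls. The lowest control, at 76.6 CPM, lay just under the highest treated animal. The log2 fold change was -0.54 (SE 0.18, limma adjusted p = 0.0244). It missed the threshold without LPS 16h 038 (0.0833), without preterm control 092 (0.0756) or 209 (0.0728), with only these groups in the fit (-0.50, 0.0746) and with gestational age as a covariate (-0.44, 0.185). Relative to the epithelial list NKX2-1 fell by 0.83 (SE 0.15, adjusted p = 3.73e-04).

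ID2 measured 97.0, 137, 74.4 and 77.6 CPM in LPS 16h and 171, 177, 142 and 104 CPM in the preterm controls, where animal 209 was lowest. The groups overlapped, and the log2 fold change was -0.64 (SE 0.22, limma adjusted p = 0.0334). Leaving out LPS 16h 026, 035 or 038, or preterm control 092, 101 or 113, brought the adjusted p to between 0.0535 and 0.100, and with only these groups in the fit it was 0.0574. ID proteins are induced by BMP signaling through SMAD1, SMAD5 and SMAD9. Of 13 genes of the ID family, their E protein partners and BMP signaling, none was called at 16 hours, and at an adjusted p below 0.05 6 were lower and 1 was higher, with a median log2 fold change of -0.50 beside -0.09 over all genes. SMAD9, which carries the BMP signal, was at -0.70 (adjusted p = 0.00561), and ID1 was at -0.38 (adjusted p = 0.370). Between LPS 16h and LPS 5d these SMAD genes did not move together. SMAD1 was higher at 16 hours by 0.97 (limma adjusted p = 2.79e-04), SMAD5 was at 0.03 (adjusted p = 0.945) and SMAD9 at -1.02 (adjusted p = 6.97e-04). The part of BMP signaling in ID2 was not tested.

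ETV4 measured 4.02, 3.68, 2.07 and 1.86 CPM in LPS 16h, all below the preterm controls, with a log2 fold change of -0.72 (SE 0.27, limma adjusted p = 0.0440). It did not pass without LPS 16h 035 (0.128) or 038 (0.139), nor without any of the preterm controls (0.0585 to 0.102), and missed the threshold under median-of-ratios scaling (0.0552), with only these groups in the fit (0.0753) and with gestational age as a covariate (0.0833). ETV5 measured 155, 148, 139 and 122 CPM and differed by -0.18 (SE 0.18, interval -0.57 to 0.21). In the FGF list 2 genes were called lower and 1 higher at 16 hours, with a median of -0.38. FGF7 rose from 21.1 ± 2.26 to 57.2 ± 14.7 CPM (log2 fold change 1.41, adjusted p = 1.15e-04), FGF9 fell by 1.47 (adjusted p = 0.00430) and FGFR3 by 1.20 (adjusted p = 9.68e-05). SPRY4 was at 0.17 (adjusted p = 0.551) and DUSP6 at 0.03 (adjusted p = 0.949). At an adjusted p below 0.05 alone, 8 of the 16 genes tested were lower and 1 was higher. SPRY2 measured 32.6 ± 2.55 CPM in LPS 16h against 50.0 ± 3.90 CPM in preterm controls. ETV1 measured 23.9 ± 7.38 against 37.8 ± 3.60 CPM, and SPRED1 47.6 ± 10.9 against 77.5 ± 20.6 CPM.

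SOX9 measured 9.63, 12.4, 10.7 and 13.3 CPM in LPS 16h, a log2 fold change of 0.68 (SE 0.40, limma adjusted p = 0.198). The difference turned on preterm control 209, which at 15.6 CPM was above every treated animal. Without it SOX9 was called higher, at 1.06 (adjusted p = 0.0320). In the same animal the airway epithelium list (12 genes found) summed to 572 CPM and the cartilage list (16 genes) to 488 CPM, the highest values of all 16 animals, against 67.3 to 192 and 176 to 286 CPM in the other preterm controls. Term control 200, with 15.3 CPM of SOX9, had 353 CPM of the airway list and 171 CPM of the cartilage list. In LPS 16h the airway list ranged from 94.6 to 238 CPM and the cartilage list from 105 to 190 CPM, and none of the 16 cartilage genes was at 0 in every library. The part of these tissues in SOX9 was not tested.

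FOXA1, FOXA2 and GATA6 differed by -0.31 (SE 0.26), -0.16 (SE 0.15) and -0.16 (SE 0.14) at 16 hours and did not pass. Relative to the epithelial list all 3 passed, at -0.60 (limma adjusted p = 0.0299), -0.45 (adjusted p = 0.0193) and -0.45 (adjusted p = 0.00947). ETV5 also passed on that scale, at -0.47 (adjusted p = 0.0295), and ETV4 was called lower, at -1.02 (adjusted p = 0.00532). With NKX2-1 and ID2, 7 of 8 passed, all lower, beside 43.4% of all genes in either direction. The median over all genes on that scale was -0.38, so FOXA2, GATA6 and ETV5 lay close to the shift of the whole table. SOX9 was at 0.39 (adjusted p = 0.373).

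**Figure D3:**
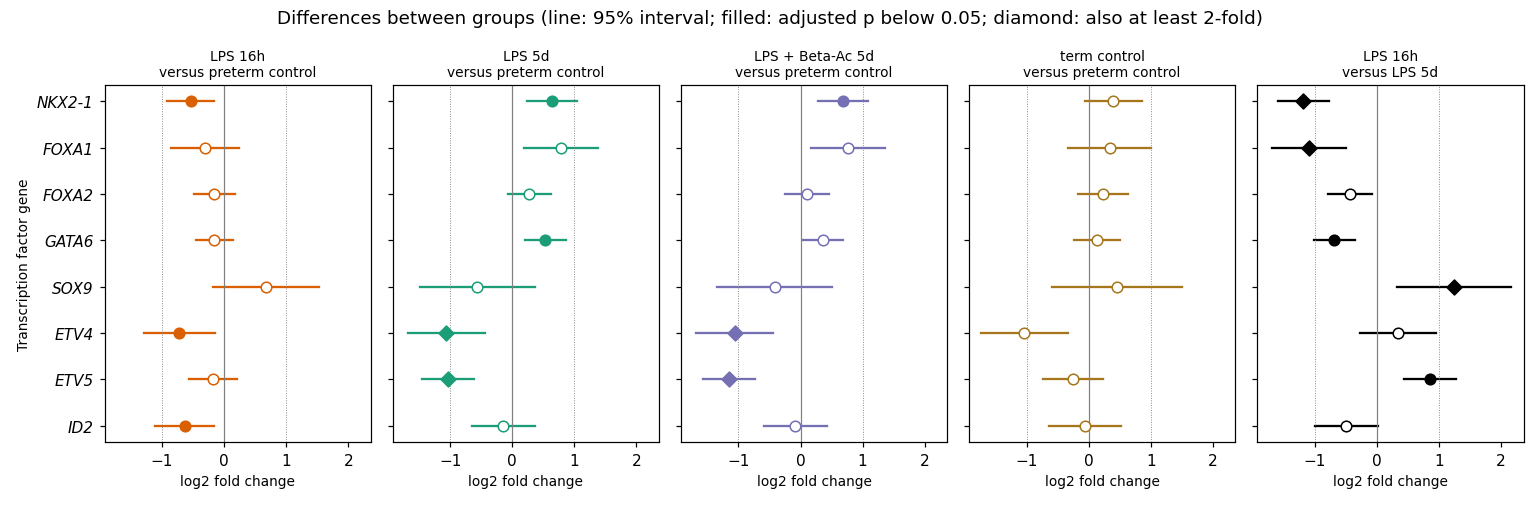
Log2 fold changes (x axis) of the 8 genes with 95% intervals in 5 comparisons. Filled symbols passed an adjusted p of 0.05, diamonds were also at least 2-fold, and dotted lines mark 2-fold. NKX2-1 lies at -0.54 at 16 hours and at 0.64 at 5 days, and ETV5 and ETV4 are diamonds at 5 days.

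LPS 16h against LPS 5d compared the times directly, in groups that also differed in age at treatment. NKX2-1 and FOXA1 were called lower at 16 hours and SOX9 was called higher, where 6.61% of all genes were called lower and 8.02% higher. GATA6 and ETV5 also passed, which made 5 of 8, beside 35% of all genes. NKX2-1 was at -1.18 (SE 0.19, limma adjusted p = 2.00e-04), and all 4 animals at 16 hours, the highest at 77.6 CPM, were below all 3 at 5 days, the lowest at 136 CPM. It remained called under every alternative tried, from -1.37 to -1.02, the epithelial scaling and the leave-out fits included.

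FOXA1 was at -1.09 (SE 0.28, limma adjusted p = 0.00661), with 8.42, 6.43, 6.97 and 8.20 CPM at 16 hours against 13.7, 21.1 and 14.1 CPM at 5 days. Its difference passed in every alternative and fell under 2-fold without LPS 5d 240 (-0.89), relative to the epithelial list (-0.93) and with gestational age as a covariate (-0.78). GATA6 was at -0.69 (SE 0.15, adjusted p = 0.00270) and FOXA2 at -0.43 (SE 0.17, adjusted p = 0.0549). ETV5 was higher at 16 hours by 0.86 (SE 0.20, adjusted p = 0.00326), whereas ETV4, at 0.34 (SE 0.29, adjusted p = 0.398), did not differ beyond its spread between the times. ID2 was at -0.49 (SE 0.24, adjusted p = 0.126). FOXA2 and ID2 passed under total-count scaling, at -0.62 (adjusted p = 0.00489) and -0.68 (adjusted p = 0.0284), and without LPS 16h 029, at -0.57 (adjusted p = 0.00456) and -0.67 (adjusted p = 0.0230).

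SOX9 was higher at 16 hours by 1.25 (SE 0.43, limma adjusted p = 0.0361). The 4 animals at 16 hours, from 9.63 to 13.3 CPM, were all above the 3 at 5 days, from 3.41 to 5.72 CPM. The call was lost without LPS 16h 029, 035 or 038 or without LPS 5d 239, 240 or 242, with adjusted p between 0.0577 and 0.147. It was also lost when the libraries were scaled by total count, at 1.06 (adjusted p = 0.0694), and with gestational age as a covariate, at 1.32 (adjusted p = 0.0615). In the FGF list 4 genes were called higher and 2 lower at 16 hours. FGF7 was at 2.21, SPRY4 at 1.42 (adjusted p = 1.74e-04), DUSP6 at 1.23 (adjusted p = 0.0109) and FGF10 at 1.03 (adjusted p = 0.00329), and FGFR2 and FGFR3 were at -1.82 and -1.69.

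Adding Beta-Ac to LPS did not detectably change any of the 8 genes at 5 days. None was called or passed in limma, none had an unadjusted p below 0.05, and voom weights gave none either, in a comparison where 0.104% of all genes were called and the same 0.104% passed. The differences ranged from -0.17 for FOXA2 to 0.15 for SOX9. The 95% interval was -0.57 to 0.33 for ETV5, -0.39 to 0.47 for NKX2-1, -0.52 to 0.18 for GATA6, -0.55 to 0.21 for FOXA2, -0.65 to 0.62 for FOXA1, -0.66 to 0.66 for ETV4, -0.49 to 0.60 for ID2 and -0.84 to 1.13 for SOX9. With 3 animals in each group these intervals still allow changes of up to their bounds, which for SOX9 exceed 2-fold.

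Term controls did not differ from preterm controls in any of the 8 genes by the limma test. None was called or passed, beside 2.07% and 3.99% of all genes, and ETV4 alone had an unadjusted p below 0.05 (voom: none passed, 1 below 0.05). ETV4 read 3.12 and 1.55 CPM in term controls 200 and 201, both below the preterm controls, a log2 fold change of -1.03 (SE 0.33, adjusted p = 0.0932). Without term control 200 or 201 it was between -1.52 and -0.55. ETV5 read 140 and 128 CPM, at -0.25 (SE 0.22, interval -0.73 to 0.23), within the range of the preterm controls. NKX2-1 read 151 and 103 CPM and was at 0.39 (SE 0.22, interval -0.06 to 0.85). FOXA1, with 16.0 and 8.57 CPM, and SOX9, with 15.3 and 6.30 CPM, differed more between the term animals than between the group means, and both fold changes turned negative without term control 200, to -0.11 and -0.17.

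Against term controls, neither 5-day group had a member that was called or passed, beside 0.0625% and 0.099% of all genes for LPS 5d and 0.568% and 0.734% for LPS + Beta-Ac 5d. Unadjusted p was below 0.05 for 2 members with LPS (voom: 2) and for 1 with LPS + Beta-Ac (voom: 1). ETV5 had the smallest p in both, at -0.79 (SE 0.24, limma adjusted p = 0.230) and -0.90 (SE 0.24, adjusted p = 0.0945), and none of the 6 animals reached the term controls. On the scale of the epithelial list they were -1.17 (adjusted p = 0.0244) and -1.26 (adjusted p = 0.0124) and were called, but that scale moved the median of all genes to -0.39 and -0.37 and the calls over all genes from 12 to 149 and from 109 to 189, so ETV5 moved with the table. ETV4 was at -0.03 in both, with intervals of -0.76 to 0.71.

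The difference in log2 CPM between ETV5 and NKX2-1 within each animal does not depend on how libraries are scaled, and only its change between groups carries meaning. It was 0.56 to 1.08 in the preterm controls, 0.92 to 1.37 in LPS 16h, -0.11 and 0.31 in the term controls, -1.41 to -0.65 in LPS 5d and -1.63 to -0.58 in LPS + Beta-Ac 5d. The difference was lower in all 6 animals delivered 5 days after LPS than in any other animal. Against preterm controls these animals already had lower ETV5 and higher NKX2-1, so the separation restates those results and adds no separate support. The difference between SOX9 and NKX2-1 was -3.00 to -1.82 in LPS 16h, above the -5.49 to -4.58 of LPS 5d and the -5.38 to -4.30 of LPS + Beta-Ac 5d, and the preterm controls, at -4.24 to -2.87, overlapped with LPS 16h. FOXA1 kept within -3.84 to -2.51 of NKX2-1 in all 16 animals.

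Across the 16 animals the log2 CPM of NKX2-1, FOXA1 and GATA6 moved together, with Pearson r of 0.84 for NKX2-1 and FOXA1, 0.85 for NKX2-1 and GATA6 and 0.86 for FOXA1 and GATA6. These describe animals that share 5 groups and are not tested. ETV5 and ETV4 had r = 0.65, and ETV5 and NKX2-1 had r = -0.60. Among 15066 other tested genes with a symbol of their own, the patterns most like NKX2-1 were those of GRAMD4 (r = 0.95), NBEAL2 (r = 0.95) and SHPK (r = 0.95). Most like ETV5 were TLE4 (r = 0.89), a corepressor, VSTM4 (r = 0.88) and FKBP3 (r = 0.88). Most like ETV4 were GALNT17 (r = 0.91), IL17B (r = 0.89) and AGTR1 (r = 0.86). For FOXA1 they were NHLRC1 (r = 0.89), PFN4 (r = 0.88) and GJB1 (r = 0.88), and for SOX9 CFAP263 (r = 0.81), CDS1 (r = 0.81) and BRSK2 (r = 0.79).

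Many genes of alveolar type 2 cells, among them known targets of NKX2-1, were higher at both times. This includes 16 hours, when NKX2-1 itself read lower by less than 2-fold and did not pass in several alternatives. The list summed to 7576 to 12939 CPM in preterm controls and 11735 to 26027 CPM in LPS 16h, which overlap. It summed to 18397 to 33315 CPM in LPS 5d and 20689 to 34492 CPM in LPS + Beta-Ac 5d. Of 14 tested, 7 were called higher and none lower in LPS 16h (median log2 fold change 1.01), 6 higher and none lower in LPS 5d (median 0.98), and 9 higher and none lower in LPS + Beta-Ac 5d (median 1.19). In term controls 1 was called higher, with a median of 0.80. ABCA3, the surfactant lipid pump, rose from 191 ± 34.7 to 757 ± 71.4 CPM at 16 hours (log2 fold change 2.00, limma adjusted p = 4.76e-07), and LAMP3, a lamellar body protein, rose by 2.22 (adjusted p = 6.93e-04). LAMP3 measured 281 ± 92.8 CPM in LPS 16h and 80.1 ± 43.7 CPM in LPS 5d, and ABCA3 458 ± 127 CPM in LPS 5d. The myeloid list was also higher at 16 hours, and its part in these rises was not tested. SFTPA1, a surfactant protein, was at 2.16 in LPS 5d (adjusted p = 0.0246) and 2.47 in LPS + Beta-Ac 5d (adjusted p = 0.0103).

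Alveolar type 1 genes followed another course. Of 14 tested, 10 were called lower in LPS 16h, with a median log2 fold change of -1.41, and none was called in either 5-day group, with medians of -0.02 and -0.06. At an adjusted p below 0.05 alone, 4 were lower and none higher in LPS + Beta-Ac 5d, and 1 was lower and 1 higher in LPS 5d. AQP5, a water channel, fell from 98.5 ± 27.4 to 20.4 ± 14.1 CPM (log2 fold change -2.44, limma adjusted p = 5.96e-04), CLIC5 by 1.93 (adjusted p = 6.18e-09) and CAV1, the caveolae protein, by 1.68 (adjusted p = 2.54e-07). CAV1 is also expressed in endothelium. AQP5 was higher by 5 days, at 125 ± 3.13 CPM in LPS 5d and 115 ± 69.9 CPM in LPS + Beta-Ac 5d. LPS 16h differed from LPS 5d by -2.83 in AQP5 (limma adjusted p = 3.89e-04).

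**Figure D4:**
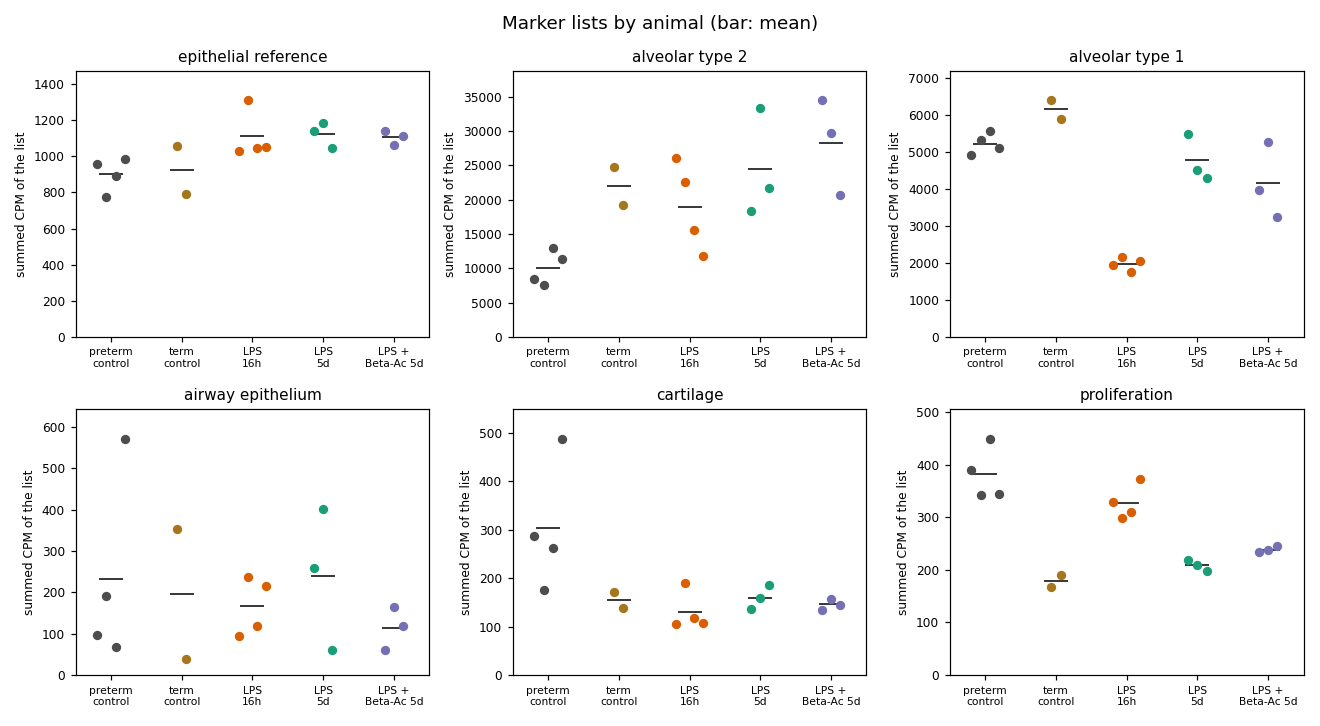
Summed TMM-scaled CPM (y axis, linear and starting at 0) of 6 gene lists in each animal, by group on the x axis, with a bar for the mean. The alveolar type 1 list lies between 1762 and 2165 CPM in LPS 16h, below all other animals, preterm control 209 has the highest airway and cartilage sums (572 and 488 CPM), and the proliferation list is lower in both 5-day groups and in term controls than in preterm controls.

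Genes of distal tip progenitors other than the members moved in both directions, though 11 of 14 read lower at 16 hours. The list (15 genes found) summed to 490 to 612 CPM in preterm controls and 430 and 481 CPM in term controls. It summed to 395 to 444 CPM in LPS 16h, 412 to 456 CPM in LPS 5d and 453 to 535 CPM in LPS + Beta-Ac 5d. Of 14 tested, 1 was called higher and 4 lower in LPS 16h (median log2 fold change -0.27), none higher and 2 lower in LPS 5d (median 0.14) and 1 higher and none lower in LPS + Beta-Ac 5d (median -0.01). CPM, a carboxypeptidase on tip cells, fell by 1.18 at 16 hours (limma adjusted p = 4.26e-04) and by 1.29 in LPS 5d (adjusted p = 0.00176), and CA2 fell by 1.05 (adjusted p = 8.77e-04) and 1.25 (adjusted p = 0.00188). TESC, another tip gene, rose by 1.28 at 16 hours (adjusted p = 0.00502).

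Of 25 other transcription factors of the lung epithelium, 6 were called higher and 3 lower in LPS 16h, 1 higher and 1 lower in LPS 5d, 3 higher and 1 lower in LPS + Beta-Ac 5d, and 2 higher and 1 lower in term controls. The rises at 16 hours included CEBPD, from 35.6 ± 6.98 to 339 ± 104 CPM (log2 fold change 3.22, limma adjusted p = 3.98e-08), CEBPB at 2.19 (adjusted p = 1.78e-07) and XBP1, a factor of secretory cells, at 2.23 (adjusted p = 2.12e-08). These genes are not confined to epithelium. EHF, an epithelial ETS factor, was at 2.26 at 16 hours (adjusted p = 0.00145) and 1.54 in LPS + Beta-Ac 5d (adjusted p = 0.0456). ELF3, of the same family, was at 1.36 in LPS 5d (adjusted p = 0.00567), and ELF5 at 1.31 (adjusted p = 0.0163) and SREBF1, which drives lipid synthesis, at 1.13 (adjusted p = 0.00124) in LPS + Beta-Ac 5d. FOXM1, a factor of dividing cells, fell by 1.62 in LPS 5d (adjusted p = 2.35e-04), by 1.23 in LPS + Beta-Ac 5d (adjusted p = 3.74e-04) and by 1.88 in term controls (adjusted p = 7.19e-04).

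Markers of other cells moved with the groups. The myeloid list (18 genes found) summed to 190 to 244 CPM in preterm controls, 2714 to 3410 CPM in LPS 16h, 417 to 445 CPM in LPS 5d, 777 to 1305 CPM in LPS + Beta-Ac 5d and 428 and 703 CPM in term controls, with 15, 11, 16 and 8 of 18 called higher and none lower against preterm controls. The proliferation list (20 genes) summed to 343 to 450 CPM in preterm controls, 298 to 373 CPM in LPS 16h, 199 to 218 CPM in LPS 5d, 233 to 245 CPM in LPS + Beta-Ac 5d and 167 and 190 CPM in term controls, with 0, 13, 6 and 13 called lower. In the term controls, where this list was also low, ETV5 was at -0.25 and ETV4 at -1.03, and neither passed. The part of proliferation in either gene was not tested. Of 15 cartilage genes 3 were called lower in each of the LPS groups and 1 was called higher in LPS 5d. Among 20 smooth muscle and mesenchyme genes 4, 1 and 3 were called lower in LPS 16h, LPS 5d and LPS + Beta-Ac 5d, and 1 was called higher in LPS 16h. Of 20 lymphocyte genes 2, 1 and 11 were called higher in these groups and 1 lower in LPS 16h, of 12 endothelial genes 3, 1 and 1 were called lower, and of 9 neural and Schwann cell genes 2, 1 and 2. No airway gene of 11 was called by limma in any of these comparisons, and none passed. No list had a gene at 0 in every animal. The part of these cells in the levels of the transcription factors was not tested.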

How the data were processed

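Fetal lung of 16 rhesus macaques had been profiled by paired-end sequencing of poly(A)-selected RNA. The deposited table holds whole-number counts, with Ensembl genes in rows and 1 column per animal. Per the study's methods and the labels, the authors assigned reads with kallisto to Mmul_10 and summarized them per gene, and the labels also name DESeq2. Not given in the sources used here are versions, the annotation release and use of strand, so reads of a gene and of one overlapping it on the opposite strand cannot be told apart, and estimated counts may have been rounded. Symbols were taken from a table of Ensembl identifiers, and 17256 of 22515 genes had one.

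Genes with at least 0.371 CPM (10 counts in the median library) in 2 or more animals and a total of at least 15 counts were tested (19199). Counts were TMM-scaled (30% of log ratios and 5% of mean values trimmed) and turned into log2 CPM with a prior count of 2. limma 3.58.1 in R 4.3.3 was run with trend and robust variance, 2-sided. No count model was used, because the layout of the table could not be checked as counts. The procedure was tested on simulated data. Animals are separate fetuses, and no libraries of a group agreed within sampling noise (chi-square per degree of freedom 31.3 to 169 over 19 pairs). ETV4 had the fewest counts of the members, from 46 to 148 per library. The named genes were all members with a row, up to 4 called genes of largest change per list and comparison, and the 3 genes correlating best with each called member. Some other list genes that were not called, such as SMAD1, SMAD5 and SPRY2, were picked by hand. Genes called in 1 comparison are also given in others where they were not called. The members and lists were chosen with earlier results of these data known. Alternatives were total-count and median-of-ratios scaling, scaling to the epithelial list, no low-count filter, a prior count of 0.5, voom weights, fitting only the compared groups, gestational age as a covariate, no fold limit and leaving out animals. SOX2 and CEBPA matched no row and were not analysed here.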

Additional observations from a re-analysis of the deposited data

Results flagged for a closer look

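Levels differed between LPS 16h and LPS 5d for 5 of the 8 genes by limma, where 35% of all genes passed. The shared preterm controls cancel in this difference, and neither time had controls of its own. Age at treatment also differed, at 129 or 130 days in LPS 16h against 126 to 129 days in LPS 5d. The part of age at treatment was not tested. On the log2 scale the effect at 16 hours minus that at 5 days was -1.18 for NKX2-1 (adjusted p = 2.00e-04), -1.09 for FOXA1 (adjusted p = 0.00661), -0.69 for GATA6 (adjusted p = 0.00270), 1.25 for SOX9 (adjusted p = 0.0361) and 0.86 for ETV5 (adjusted p = 0.00326). SOX9 did not pass when any of 6 animals was left out (adjusted p = 0.0577 to 0.147), under total-count scaling (0.0694) or with gestational age as a covariate (0.0615). The libraries at 16 hours were also the deepest and had the lowest scaling factors, and their part in the difference was not tested beyond the scalings tried. Among 16 checks for a sample far from its group, in the groups of 4 animals, none passed the limit, where chance gives about 1 in 20.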

How the results depend on the processing

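No paired analysis was possible because animal numbers do not recur between groups. With 1 animal at a time left out, the count called ranged from 0 to 1 for LPS 16h against preterm controls and from 0 to 2 for LPS 5d and for LPS + Beta-Ac 5d. It became 1 relative to the epithelial list (LPS 16h against preterm, both 5-day groups against term), 1 with gestational age (LPS 5d against preterm, LPS 16h against LPS 5d), 1 without preterm control 209 and term control 200 (LPS 16h), and 3, 4 and 5 without the fold limit (LPS 16h and LPS 5d against preterm, LPS 16h against LPS 5d). It rose from 2 to 3 relative to the epithelial list (LPS 5d against preterm, SOX9 added) and with gestational age (LPS + Beta-Ac 5d, FOXA1 added), and fell from 3 to 2 by total counts (LPS 16h against LPS 5d, SOX9 lost). Relative to the epithelial list the calls over all genes also rose, from 928 to 2216 for LPS 5d against preterm.

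No sign turned for a difference that passed. Under total-count scaling the difference was 0.0097 for ID2 (term against preterm) and -0.043 for FOXA2 (LPS 5d against term). Relative to the epithelial list FOXA2 was at -0.18 and -0.32 (LPS and LPS + Beta-Ac against preterm) and -0.35 (LPS 5d against term), GATA6 at -0.061 and -0.12 (LPS + Beta-Ac against preterm, term), NKX2-1 at -0.14 and -0.070 (LPS, LPS + Beta-Ac against term), and FOXA1 at 0.011 and ETV4 at 0.027 (LPS + Beta-Ac against LPS). With voom ETV4 was at 0.0011 there. With gestational age FOXA1 was at 0.14 and GATA6 at 0.056 (LPS 16h against preterm), and FOXA1 at 0.20 and ID2 at -0.068 (LPS + Beta-Ac against LPS). Without animals 209 and 200, ETV4 was at 0.46 and 0.46 and ID2 at 0.15 and 0.21 (LPS, LPS + Beta-Ac against term). The cause was not tested.

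Leaving out 1 animal, ID2 ranged from -0.37 to 0.056 (LPS 5d), -0.25 to 0.0083 (LPS + Beta-Ac) and -0.29 to 0.17 (term) against preterm, and there term FOXA1 from -0.11 to 0.79, GATA6 from -0.0061 to 0.22 and SOX9 from -0.17 to 1.10. Against term, LPS 5d gave -0.026 to 0.52 for NKX2-1, -0.0054 to 0.89 for FOXA1, -0.069 to 0.15 for FOXA2, -0.52 to 0.46 for ETV4 and -0.32 to 0.15 for ID2, and LPS + Beta-Ac gave -0.023 to 0.88 for FOXA1, -0.52 to 0.46 for ETV4 and -0.26 to 0.21 for ID2. LPS + Beta-Ac against LPS gave -0.027 to 0.12 for NKX2-1, -0.13 to 0.18 for FOXA1, -0.18 to 0.41 for SOX9, -0.14 to 0.13 for ETV4, -0.32 to 0.093 for ETV5 and -0.14 to 0.28 for ID2. A lone remaining term control is assumed to vary like the other groups.

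Scaling moved the share of called genes that were higher: in LPS 16h from 57.8% to 39.4% by total counts and 31.3% relative to the epithelial list, in LPS 5d from 53.8% to 9.48% and in LPS + Beta-Ac 5d from 62.4% to 18.7% relative to that list, and for LPS 16h against LPS 5d from 54.8% to 38.0% by total counts and 68.3% relative to that list. Groups of 2 to 4 animals limit all these values, and ETV4 rests on as few as 46 counts in a library.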
